A study of Homo sapiens with 12 samples.

Results

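The messenger RNA of 40 genes of the RAS and MAP kinase cascade was followed in K562 cells, in imatinib-resistant K562/IM cells, and in libraries labelled as each of these lines under lycorine. The genes were taken by symbol from a named list, and all 40 were among the 19447 symbols of the count table. They comprised 15 genes of RAS control (5 RAS family GTPases, 7 adaptors or exchange factors and 3 GTPase-activating proteins), 11 genes of the ERK arm and 14 genes of the JNK/p38 arm. They were measured in 12 libraries, 3 to a group. The K562 line, derived from human chronic myeloid leukemia and positive for the BCR-ABL fusion, was the untreated control. K562+L is the same line under 6 µM lycorine, an alkaloid of Amaryllidaceae plants. K562/IM is a single line derived from K562 by exposure to imatinib in rising steps and kept in the drug, and a further group is given by its label, K562/IM+L, as that line under 6 µM lycorine. Some marker values of that group lie far from those of K562/IM, and whether its label holds was not tested. The replicates of that group are called the labelled libraries throughout. The time of exposure to lycorine before sequencing was not given in the sources used here, nor was it stated whether replicates came from separate cultures, so p-values measure the spread between these libraries, which may be technical.

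RAS proteins are small GTPases at the inner face of the cell membrane. Adaptors such as GRB2 and SHC1 bring exchange factors (SOS1, SOS2, the RASGRP proteins) that load RAS with GTP, and GTPase-activating proteins (NF1, RASA1, RASA2) return it to the inactive state. In the ERK arm, active RAS recruits RAF kinases (ARAF, BRAF), which phosphorylate the MEKs (MAP2K1, MAP2K2), which in turn phosphorylate ERKs. In the JNK/p38 arm, stress-responsive MAP3Ks act through MAP2K3, MAP2K4, MAP2K6 and MAP2K7 on the JNKs (MAPK8, MAPK9) and p38 kinases (MAPK11, MAPK14). BCR-ABL feeds this cascade through GRB2 in chronic myeloid leukemia. Signal flow is set by phosphorylation and GTP loading, which RNA does not report.

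Before the results, 3 features of the libraries need stating. Library totals ran between 75093844 and 107344598 counts. First, checks of the labels gave unequal answers for the libraries labelled K562/IM+L. ABCB1, a drug efflux pump, stood at 21.9 to 25.9 CPM (counts scaled to a common library size with TMM, edgeR's trimmed mean of M-values) in K562/IM, at 1.68 to 1.86 in K562, and at 0.488 to 1.06 in the labelled libraries, below K562. The study's Western blots reported less P-gp, the protein of ABCB1, in K562/IM cells under lycorine than without it. The summed CPM of 9 erythroid genes of the K562 line was 6110 to 8482 in K562, 4136 to 4748 in K562+L, 2825 to 3076 in K562/IM and 32272 to 45382 in the labelled libraries. HBG1, HBG2 and HBZ followed these sums, but not all 9 genes did. HBE1 had a mean of 97.6 CPM in K562 and 544 in K562/IM. KLF1 had 139 in K562 and 174 in K562+L, with overlapping libraries. GATA1 changed less, with means of 230, 206, 196 and 250 CPM in K562, K562+L, K562/IM and the labelled libraries. For 6 late red cell genes the sums were 1309 to 1669, 776 to 1054, 484 to 566 and 9541 to 13549 in the same order. None of these 15 genes was at 0 in every library of any group, and the group was analysed as labelled. Markers of other cells also moved. Sums of 5 lymphocyte genes, of which 1 or 2 were at 0 throughout a group, stayed under 3.50 CPM outside K562/IM and were 23.8 to 25.7 in it. Sums of 5 megakaryocyte genes were 4.96 to 11 in K562 and K562+L, 183 to 198 in K562/IM and 165 to 208 in the labelled libraries, with PF4 at or near 0 in all 12 libraries and 1 to 3 genes at 0 throughout a group. The like sums of the last 2 groups came from different genes, as ITGA2B had a mean of 186 ± 8.29 CPM in K562/IM and 18 ± 1.46 in the labelled libraries, and TUBB1 of 3.80 ± 0.465 and 170.2 ± 23.2 (SD, n = 3). Sums of 5 monocyte or granulocyte genes ranged from 75.4 to 171 CPM over the 12 libraries. LYZ made up nearly all of them, with means of 111, 120, 166 and 78.1 CPM in K562, K562+L, K562/IM and the labelled libraries. Sums of 5 fibroblast or epithelium genes ranged from 66.8 to 133 CPM and were mostly EPCAM. EPCAM was 128 ± 4.79 CPM in K562 and 46.3 ± 2.90 in K562/IM, while COL1A1, COL1A2 and DCN were higher in K562/IM. COL1A2 had 0.0164 ± 0.0283 and 17.2 ± 1.54 CPM in these 2 groups (SD, n = 3). The part that these shifts have in the results was not tested, and in bulk RNA fewer cells of a type and less RNA per cell cannot be told apart.

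Replicates also differed along transcript length and GC content. Over the 38 members with a mean count of at least 100, the difference of K562 replicate 1 from the mean of the other 2 had a Spearman correlation of 0.87 with the length of the longest coding transcript and of -0.78 with its GC content. K562 replicate 3 went the other way (-0.81 with length). Among the labelled libraries, replicate 3 deviated with length at 0.85, and K562+L replicate 3 at 0.81. These correlations are descriptions, since the points share libraries and length goes with GC content. Group differences among members also went with length, at correlations of 0.48 for K562+L minus K562, 0.46 for K562/IM minus K562, -0.51 for the labelled libraries minus K562/IM and -0.34 for them minus K562. A correction of each library for length and GC, added after the data were seen, was therefore run beside the fits. It takes out such trends between groups as well as between replicates, and its values are given for the members whose call it changed, in most cases together after the interactions.

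**Figure D1:**
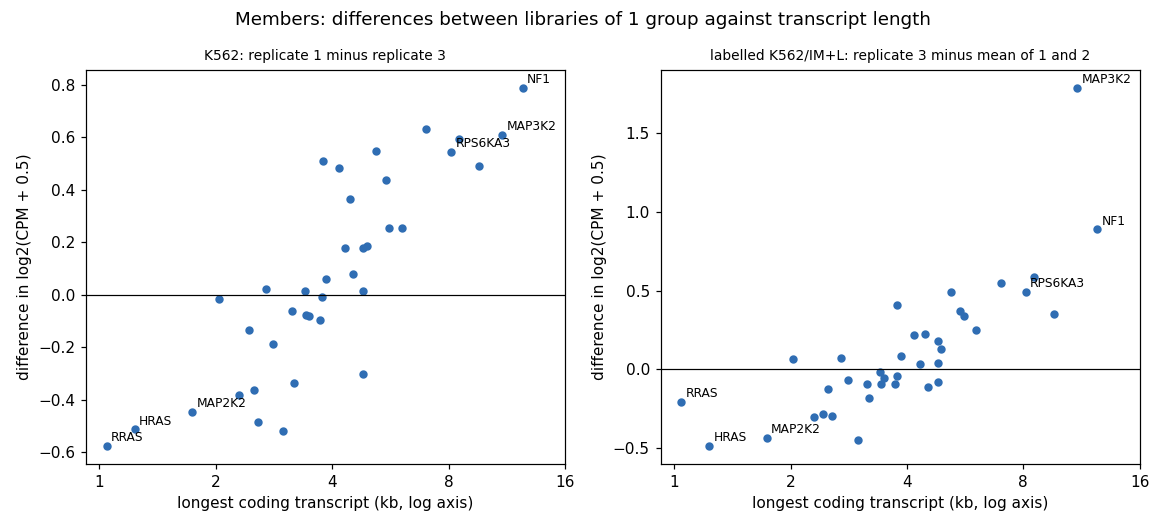
Difference between libraries of the same group in log2(CPM + 0.5), for the 38 members with a mean count of at least 100, against the length of the longest coding transcript in kb on a log axis. Left, K562 replicate 1 minus replicate 3; right, replicate 3 of the libraries labelled K562/IM+L minus the mean of its replicates 1 and 2. Each point is 1 member, and long transcripts such as NF1 and MAP3K2 sit high while the short HRAS and RRAS sit low in both panels.

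In untreated K562, levels per kilobase of exon spanned from NRAS at 53.9 ± 6.75 CPM per kb (SD, n = 3) to RASGRP1 at 0.0376 ± 0.0224. GRB2 followed NRAS at 38.8 ± 1.46 CPM per kb. In the ERK arm MAP2K2 was highest at 20.5 ± 3.19 CPM per kb, and in the JNK/p38 arm MAP2K7 at 16 ± 0.473. MAP2K2 and RRAS2, at 20.2 ± 0.471, did not differ beyond their spread. MAP2K6, which encodes a p38 kinase kinase, had 0 counts in each of the 12 libraries, which allows up to 3 counts, or 0.0280 to 0.0419 CPM by library. The other 39 members passed the filter on low counts in each fit, and RASGRP1 was the weakest of them, with 7 to 93 counts per library.

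The promoters of 4 members that differed strongly between groups are shown first, RASGRP2 and RASGRP3 because these paralogues parted in K562+L, MAP2K3 and NF1 because they moved in opposite directions in the labelled libraries. Each runs 5′ to 3′ on the gene's strand, from 250 bases before to 50 bases after the annotated start, from RefSeq on GRCh38.p14. Capitals mark matches, on either strand, to a motif searched. The motif letters were TGANTCA for AP-1 and TGACGTCA for CRE. They were CCGGAAG for ETS factors and GGGCGG for SP1. For GATA factors AGATAA and also TGATAA were searched, and for the E-box the letters CACGTG. No matches overlap in these 4 windows.
RASGRP2, chr11:64745299-64745598, minus strand: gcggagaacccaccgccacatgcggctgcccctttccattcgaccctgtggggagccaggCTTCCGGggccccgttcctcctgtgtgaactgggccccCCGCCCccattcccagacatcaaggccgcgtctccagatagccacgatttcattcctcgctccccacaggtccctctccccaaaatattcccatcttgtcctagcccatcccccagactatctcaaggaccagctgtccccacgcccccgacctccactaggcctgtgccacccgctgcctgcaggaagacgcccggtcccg
RASGRP3, chr2:33436098-33436397, plus strand: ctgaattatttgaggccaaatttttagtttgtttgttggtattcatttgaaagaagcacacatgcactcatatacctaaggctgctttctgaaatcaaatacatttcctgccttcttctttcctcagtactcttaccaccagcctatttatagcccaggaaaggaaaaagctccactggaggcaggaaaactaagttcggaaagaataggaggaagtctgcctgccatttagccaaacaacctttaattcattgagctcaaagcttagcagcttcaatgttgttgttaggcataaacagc
MAP2K3, chr17:21284461-21284760, plus strand: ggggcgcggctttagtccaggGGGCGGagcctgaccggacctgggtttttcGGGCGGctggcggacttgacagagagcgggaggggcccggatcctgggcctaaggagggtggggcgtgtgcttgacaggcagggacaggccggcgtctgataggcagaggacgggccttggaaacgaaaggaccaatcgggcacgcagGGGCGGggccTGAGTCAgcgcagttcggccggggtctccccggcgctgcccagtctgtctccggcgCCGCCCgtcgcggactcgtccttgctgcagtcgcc
NF1, chr17:31094727-31095026, plus strand: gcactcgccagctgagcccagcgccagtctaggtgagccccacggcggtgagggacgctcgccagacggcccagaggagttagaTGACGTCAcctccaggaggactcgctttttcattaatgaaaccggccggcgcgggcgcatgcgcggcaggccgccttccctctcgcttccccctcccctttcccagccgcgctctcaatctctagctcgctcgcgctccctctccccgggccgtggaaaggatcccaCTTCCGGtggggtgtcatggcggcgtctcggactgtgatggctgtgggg
The RASGRP2 window held 1 ETS and 1 SP1 match and 17 CpG dinucleotides, while the RASGRP3 window held none of the motifs and 1 CpG. The MAP2K3 window held the sole AP-1 match among member promoters and 4 SP1 matches, and the NF1 window the sole CRE match. Promoter entries were found for 36 of 40 members, not for RRAS, RASA2, MAP3K1 and ATF2. Of the 36, 27 (75%) held an SP1 match against 44.6% of all 27305 promoters of this length, 6 (16.7%) an ETS match against 10.7%, and 3 (8.33%) each a GATA match against 16.6% and an E-box match against 7.43%. The shares with AP-1 and CRE were 2.78% each, against 7.76% and 1.98% of all promoters. Median GC content was 67.2% in member promoters and 58.3% in all, with medians of 25.5 and 14 CpG. A match describes letters in a window and is no evidence of binding.

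Under lycorine in K562, few members changed by more than 1 log2 unit. RASGRP2, an exchange factor that acts mainly on RAP1, fell from a mean of 7.93 ± 1.51 to 1.23 ± 0.155 CPM (SD, n = 3), and RRAS, an R-RAS GTPase linked to integrin adhesion, from 5.41 ± 1.26 to 2.39 ± 0.425 CPM. The ERK-activated kinases MKNK2 and RPS6KA1 fell, as did the p38 kinase MAPK11. NF1 and RASA1, which switch RAS off, rose, as did the adaptor GRB2. At an adjusted p under 0.05, 15 of 39 members tested passed (7 higher, 8 lower), or 38.5%, against 37.3% of the 12927 genes tested (18.2% higher, 19.0% lower), so the share of members called was near that of all genes. With an absolute log2 fold change over 1 as well, 2 passed, both lower, against 6.39% of all genes in either direction and 4.01% in the lower. In 22 members the groups did not overlap, against 51.5% of all genes. The median log2 fold change was 0.059 for members and -0.00012 for all genes tested. Under upper-quartile scaling the split was 4 higher and 8 lower, and under the length and GC correction 26 members passed, 12 higher and 14 lower. Over all genes the main fit called 2359 higher and 2462 lower. Upper-quartile scaling called 2041 and 2747 of all genes, and the length and GC correction 3276 and 3018.

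Single libraries weighed on these counts. The calls of RASGRP2, RRAS, MKNK2, MAPK11, RPS6KA1 and MAPK9 held when each library was left out in turn. Those of NRAS, GRB2, RASGRP3, NF1, RASA1, BRAF, MAPK3, MAP3K2 and MAP2K3 did not, and 6 members passed without K562 replicate 2, 7 without K562+L replicate 1 and 8 without K562+L replicate 3. Past both thresholds there were 4 members without K562 replicate 1 and 1 without K562 replicate 3.

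In K562/IM against K562, genes of RAS control changed in both directions. The calcium- and diacylglycerol-responsive exchange factors RASGRP3 and RASGRP2 rose, from 5.88 ± 0.794 to 21.5 ± 0.988 CPM and from 7.93 ± 1.51 to 19 ± 1.44 CPM (SD, n = 3). Of the 5 RAS family GTPases, RRAS rose and HRAS, NRAS, RRAS2 and MRAS fell. The 3 GTPase-activating proteins were higher and the 5 MAP3Ks of the JNK/p38 arm were higher, although RASA2 (0.31 to 0.09), MAP3K2 (0.55 to 0.11), MAP3K3 (0.28 to 0.074) and MAP3K7 (0.33 to 0.16) did not pass after the length and GC correction (log2 fold changes). MAPK11, a p38 kinase, and HRAS fell by more than 1 log2 unit. In all, 27 of 39 members passed at an adjusted p under 0.05 (18 higher, 9 lower), or 69.2%, against 57.1% of 13406 genes (30.1% higher, 27.1% lower), and 5 passed both thresholds (3 higher, 2 lower) against 19.1% (13.9% higher, 5.29% lower). The groups did not overlap in 30 members, against 66.6% of all genes. Members had a median of 0.25 and all genes of 0.042 (log2 fold change). By class, 13 of 15 RAS control genes, 6 of 11 ERK arm genes and 8 of 13 JNK/p38 genes tested passed. The calls of 18 members held without each library, while those of NRAS, SHC1, SOS2, RASA2, BRAF, MAP2K2, MAP3K2, MAP3K3 and MAP3K7 were lost without at least 1 of K562 replicates 2 and 3 and the K562/IM libraries.

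When the labelled libraries were set against K562/IM, most members were lower. RASGRP3 and RASGRP2, high in K562/IM, stood at 4.61 ± 0.471 and 3.81 ± 0.996 CPM (SD, n = 3). NF1, the neurofibromin gene, and RPS6KA3, the ERK-activated kinase RSK2, fell by more than 1 log2 unit. The 5 MAP3Ks were each lower, while the kinases below them parted, MAP2K3, MAP2K7 and MAPK11 being higher and MAPK8 lower. MAP2K2 rose and its paralogue MAP2K1 fell. Of 39 members, 29 passed (9 higher, 20 lower), or 74.4%, against 66.8% of 13727 genes (33.2% higher, 33.6% lower), and 11 passed both thresholds (3 higher, 8 lower) against 28.5% (14.7% higher, 13.8% lower). The groups did not overlap in 32 members, against 73.4% of all genes. The median log2 fold change was -0.35 for members and -0.0069 for all genes. After the length and GC correction the split was 12 higher and 17 lower, and over all genes 4827 higher and 4881 lower. The calls of SHC1, SOS2, RASA1, RASA2, ARAF, MAP3K2 and ATF2 were lost without at least 1 of the 3 K562/IM libraries or of replicates 1 and 2 of the labelled libraries, and 22 held.

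Set against untreated K562, the labelled libraries had 18 of 39 members past an adjusted p of 0.05 (6 higher, 12 lower), or 46.2%, against 56.0% of 13307 genes (28.2% higher, 27.8% lower), and 5 past both thresholds (1 higher, 4 lower) against 23.8% (14.9% higher, 8.91% lower). In 23 members the groups did not overlap, against 63.6% of all genes. The GTPases HRAS, NRAS, RRAS2 and MRAS were lower, and none of the 3 GTPase-activating proteins passed, though NF1 at -0.72 and RASA1 at 0.51 did after the length and GC correction. Upper-quartile scaling, which moved the median of all genes by 0.15, gave 8 higher and 6 lower, and over all genes 4564 higher and 2883 lower. NRAS, at -0.23, was no longer past the test, nor were GRB2, RPS6KA1, MAP3K3, MAP3K7 and MAPK8. ARAF and MAPK7 were added, and no called member changed sign. The median was -0.12 for members and 0.020 for all genes. The calls of HRAS, NRAS, MAPK3, MKNK1, RPS6KA1, MAP3K7 and MAPK8 were lost without at least 1 library, each being lost without replicate 1 of the labelled libraries, and without K562 replicate 1 the members past both thresholds were 3. This comparison shares its libraries with the others, and the values are given side by side.

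**Figure D2:**
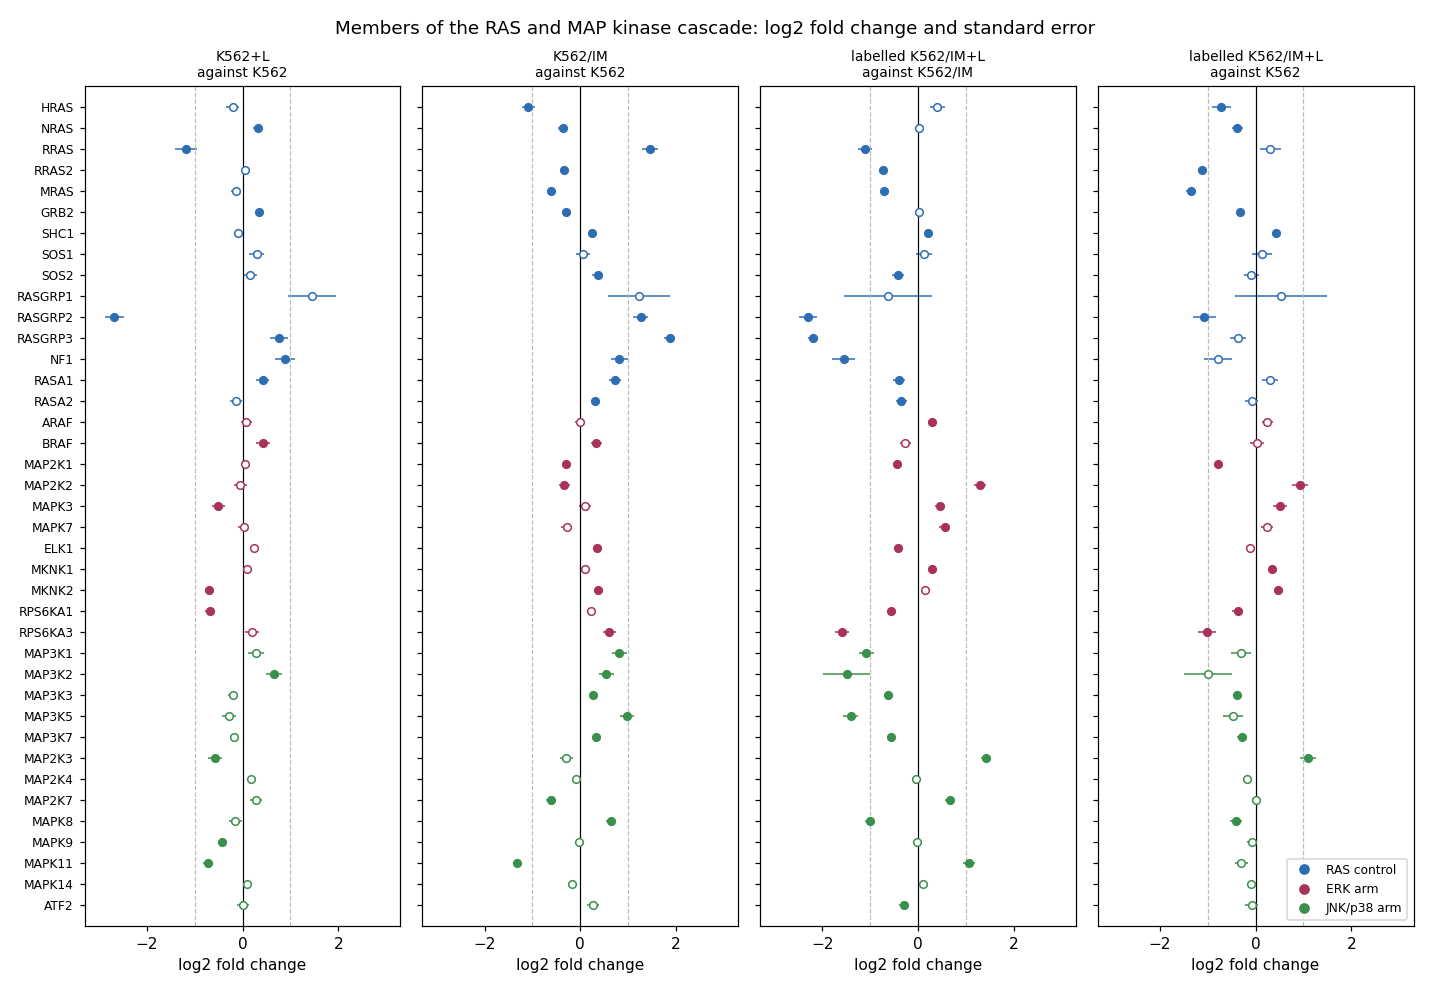
Log2 fold change of the 39 members tested in 4 comparisons, with horizontal bars for 1 standard error (SE, edgeR). Filled points passed an adjusted p under 0.05, open points did not, and dashed lines mark a log2 fold change of 1 in either direction. RASGRP2 is the lowest point for K562+L against K562 at -2.68, and RASGRP3 the highest for K562/IM against K562 at 1.87.

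Among the RAS family GTPases, HRAS (chr11:532242-537287, GRCh38, GENCODE release 29) had 27.5, 32.5 and 39.5 CPM in K562, 28.3, 31.9 and 26 in K562+L, 16, 15.9 and 15.1 in K562/IM and 20.2, 25.1 and 15.9 in the labelled libraries. All K562/IM libraries lay below the K562 and K562+L libraries, and the labelled libraries overlapped with K562/IM. In K562/IM against K562 its log2 fold change was -1.08 ± 0.13 (SE), with an adjusted p of 0.000329, and -0.68 after the length and GC correction. Errors of log2 fold changes are SE throughout. For the labelled libraries against K562/IM it was 0.41 ± 0.16 (adjusted p = 0.0512), and the correction turned it to -0.26. NRAS, the member with the highest level, had 268, 243 and 208 CPM in K562, 287, 300 and 316 in K562+L, 189, 191 and 181 in K562/IM and 180.5, 172 and 206 in the labelled libraries. Its K562+L libraries were above the others. NRAS was at 0.33 ± 0.11 under lycorine in K562 (adjusted p = 0.041) and -0.36 ± 0.10 in K562/IM (adjusted p = 0.0157). In the labelled libraries against K562/IM it was 0.02 ± 0.085 (adjusted p = 0.847).

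RRAS (chr19:49635292-49640201) had 4.41, 5.0 and 6.82 CPM in K562, 2.68, 2.59 and 1.90 in K562+L, 14, 15.8 and 14.8 in K562/IM and 5.98, 8.33 and 6.05 in the labelled libraries. K562/IM was above and K562+L below the other groups, and the labelled libraries overlapped with K562. Its log2 fold change was -1.18 ± 0.22 for K562+L (adjusted p = 0.00583), 1.46 ± 0.17 for K562/IM against K562 (adjusted p = 0.000246) and -1.11 ± 0.15 for the labelled libraries against K562/IM (adjusted p = 0.000451). After the length and GC correction these were -0.67, 1.9 and -1.79, so its size in the last comparison moved by more than 1.5 times. RRAS2, which encodes TC21, had 68.6, 71.7 and 69.3 CPM in K562, 69.8, 76.3 and 72.4 in K562+L, 55.7, 55.6 and 53.3 in K562/IM and 31.6, 32.6 and 33.5 in the labelled libraries. The K562/IM libraries lay below K562 and the labelled libraries below both. MRAS, whose product joins SHOC2 and a phosphatase to release RAF from inhibition, had 21.4, 21.1 and 20.3 CPM in K562, 21.6, 17.2 and 18.3 in K562+L, 13.3, 13.3 and 14.6 in K562/IM and 8.64, 8.41 and 7.85 in the labelled libraries, in the same order. Against K562, the labelled libraries were at -1.12 ± 0.075 for RRAS2 (adjusted p = 3.33e-05) and -1.35 ± 0.10 for MRAS (adjusted p = 4.82e-05) on the log2 scale. Within the summed CPM per kb of the 5 GTPases, RRAS2 made up 20.3% ± 0.704 in K562, 19.3% ± 0.435 in K562+L, 19.5% ± 0.268 in K562/IM and 13.6% ± 0.129 in the labelled libraries (SD, n = 3).

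Of all members called, RASGRP2 or RASGRP3 had the largest absolute log2 fold change in 3 of the 4 pairwise comparisons. RASGRP2 (chr11:64726911-64745456), whose promoter is printed above, had 6.24, 8.39 and 9.15 CPM in K562 and 1.25, 1.07 and 1.38 in K562+L. It had 20.7, 18 and 18.3 CPM in K562/IM and 3.59, 4.90 and 2.94 in the labelled libraries. No groups overlapped, K562+L lying below K562 and the labelled libraries below K562/IM. The log2 fold change was -2.68 ± 0.20 in K562 (adjusted p = 0.000173) and -2.3 ± 0.19 for the labelled libraries against K562/IM (adjusted p = 3.63e-05). The difference between these 2 values was 0.36 ± 0.28 and did not pass (adjusted p = 0.277), which does not show that they are alike. K562/IM was at 1.26 ± 0.15 against K562 (adjusted p = 0.000303).

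RASGRP3 (chr2:33436324-33564750), which activates RAS and RAP1, behaved otherwise. It had 5.41, 5.42 and 6.79 CPM in K562, 9.63, 7.82 and 12.5 in K562+L, 22.6, 21.2 and 20.7 in K562/IM and 5.03, 4.10 and 4.70 in the labelled libraries. K562/IM stood above all others, and the labelled libraries lay below K562, a difference that did not pass (adjusted p = 0.0887). The log2 fold change was 0.77 ± 0.19 under lycorine in K562 (adjusted p = 0.0171, lost without K562 replicate 2 at 0.0638, K562+L replicate 1 at 0.0532 and K562+L replicate 3 at 0.0511) but -2.19 ± 0.11 for the labelled libraries against K562/IM (adjusted p = 3.61e-06). The difference between these opposite values was -2.98 ± 0.23 (adjusted p = 7.84e-07). Of the summed CPM per kb of RASGRP1, RASGRP2 and RASGRP3, RASGRP3 held 28.4% ± 2.62 in K562, 74.2% ± 2.53 in K562+L, 37.6% ± 0.392 in K562/IM and 38.1% ± 6.29 in the labelled libraries (SD, n = 3). RASGRP1, the exchange factor of T cell receptor signalling, was weakly expressed, at 0.0881 to 0.968 CPM over all 12 libraries, and passed in no comparison (in K562+L against K562 1.45 ± 0.50, adjusted p = 0.051, with an adjusted p of 0.0407 after the length and GC correction).

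The adaptors changed little. GRB2, the link from BCR-ABL to SOS, went from 183 ± 6.90 to 232 ± 6.95 CPM under lycorine in K562 (log2 fold change 0.34 ± 0.076, adjusted p = 0.0111, lost without K562 replicate 2 at 0.0649). It was 149 ± 2.38 CPM in K562/IM (-0.29 ± 0.066 against K562, adjusted p = 0.00613) and 149 ± 5.59 in the labelled libraries, where its difference from K562/IM was 0.022 ± 0.062 (adjusted p = 0.776). SHC1 was 0.25 ± 0.07 in K562/IM against K562 (adjusted p = 0.0156), a change lost without K562 replicate 2, K562/IM replicate 2 or K562/IM replicate 3. SOS1 passed in no comparison, with log2 fold changes from 0.053 to 0.30, but after the length and GC correction it passed in 3, at -0.30 for K562/IM against K562, 0.61 for the labelled libraries against K562/IM and 0.28 for them against K562. For its paralogue, SOS2, the value was 0.36 ± 0.12 in K562/IM (adjusted p = 0.034), or 0.16 and no longer past the test after the correction.

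Among the GTPase-activating proteins, NF1 (chr17:31094927-31382116) had 108, 79.3 and 62.4 CPM in K562, 159, 125 and 181 in K562+L, 146, 139 and 156 in K562/IM and 39.5, 36.9 and 71.2 in the labelled libraries. Both K562+L and K562/IM lay above K562 without overlap, and the labelled libraries lay below K562/IM, replicate 3 being the highest of them. NF1 rose by 0.89 ± 0.21 on the log2 scale under lycorine in K562 (adjusted p = 0.0137, lost without K562 replicate 2 or K562+L replicate 1, at 0.0505 and 0.054). For the labelled libraries against K562/IM it was -1.55 ± 0.25 (adjusted p = 0.000984), and -1.05 after the length and GC correction. NF1 has the longest transcript among the tested members, at 12425 bases, and has several pseudogenes, so that reads could have been shared with them. RASA1 rose in K562/IM by 0.73 ± 0.13 (adjusted p = 0.00188). It shares 771 of its 5232 exonic bases with CCNH on the opposite strand, and whether counting used strand was not stated. In the labelled libraries against K562/IM, RASA1 was at -0.39 ± 0.13 (adjusted p = 0.0271) and RASA2 at -0.35 ± 0.12 (adjusted p = 0.0284), and with the correction they were at -0.12 and 0.039, neither past the test.

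**Figure D3:**
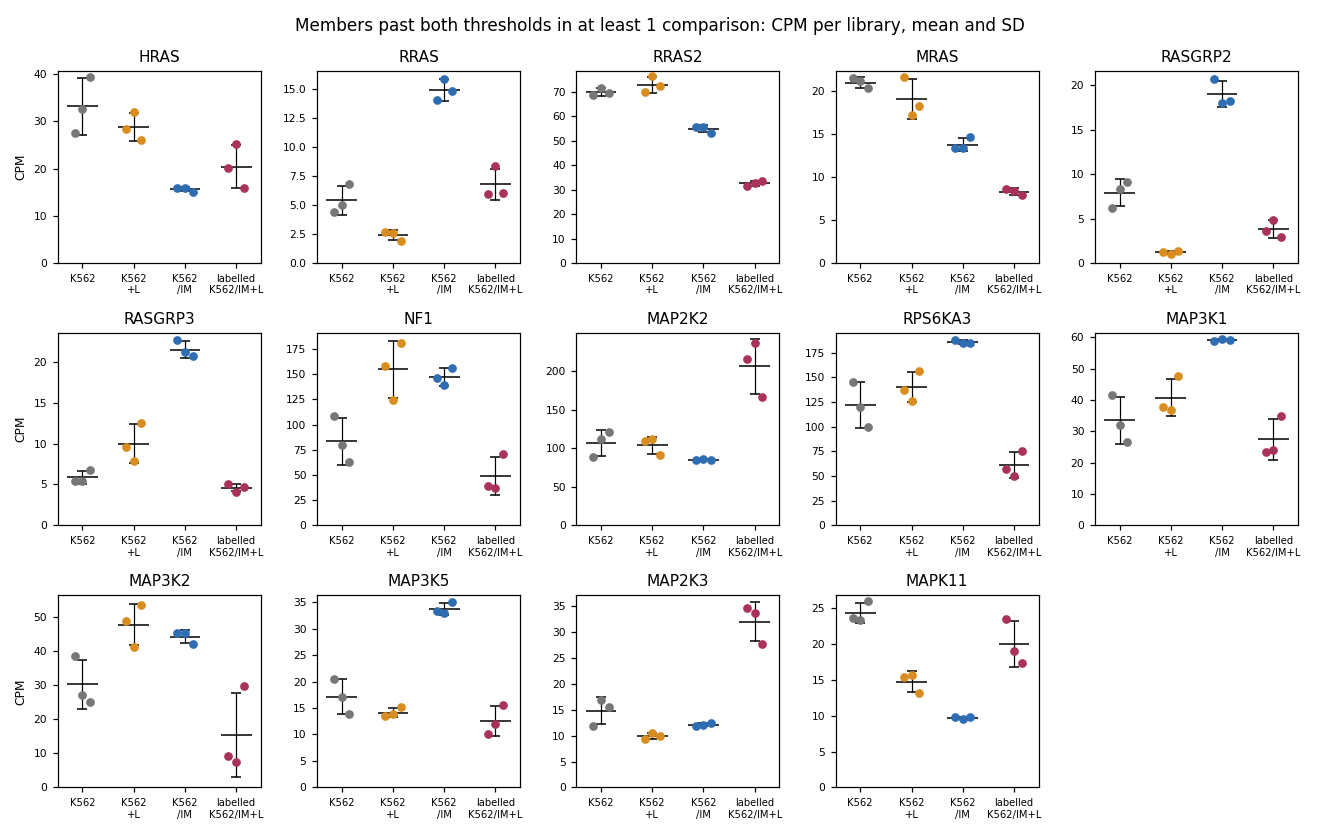
CPM (TMM over 12 libraries) of the 14 members past both thresholds in at least 1 of the 4 comparisons, by group. Points are libraries in replicate order, the long line is the mean and the bars are the SD (n = 3). RASGRP3 peaks in K562/IM at 21.5 ± 0.988 CPM, and MAP2K2 and MAP2K3 are highest in the labelled libraries.

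In the ERK arm, the RAF kinases moved little. ARAF was at 0.29 ± 0.071 in the labelled libraries against K562/IM (adjusted p = 0.00875), and 0.049 after the length and GC correction. BRAF rose under lycorine in K562 by 0.42 ± 0.14 (adjusted p = 0.0453), a call lost without any library except K562 replicate 1. After the correction its value was 0.10. BRAF shares 1239 exonic bases with NDUFB2 on the opposite strand, and whether counting used strand was not stated. Other members with overlaps include MAP3K3 (402 bases with LIMD2), SHC1 (335 with PYGO2 on the same strand) and MAP2K1 (216 with SNAPC5).

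The paired MEK genes diverged. MAP2K2 (chr19:4090321-4124129), which encodes MEK2, had 88.6, 112 and 121 CPM in K562, 109, 112 and 91.4 in K562+L, 85, 86.1 and 84.7 in K562/IM and 215, 236 and 167 in the labelled libraries. The labelled libraries were above all 9 others, with replicate 3 the lowest of them. MAP2K2 rose against K562/IM by 1.3 ± 0.12 on the log2 scale (adjusted p = 7.11e-05), and 0.78 after the length and GC correction. MAP2K1, which encodes MEK1, was at 56.9 ± 1.88 CPM in K562, 59.4 ± 1.41 in K562+L, 46.3 ± 1.10 in K562/IM and 33.6 ± 0.486 in the labelled libraries (SD, n = 3), and its log2 fold change against K562/IM was -0.44 ± 0.064 (adjusted p = 0.000619). MAP2K2 thus made up 57.3% ± 4.38 of the summed CPM per kb of both genes in K562, 55.6% ± 2.49 in K562+L, 56.9% ± 0.779 in K562/IM and 81.2% ± 2.73 in the labelled libraries (SD, n = 3). The 3 first groups overlapped with each other and the labelled libraries stood apart. All shares given here and for other families use CPM without the length and GC correction. In K562/IM against K562, MAP2K2 was at -0.33 ± 0.11 (adjusted p = 0.0383), a call lost without K562 replicate 2 or 3 or any K562/IM library and at -0.048 with the correction.

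MAPK3, which encodes ERK1, fell under lycorine in K562 from 43.1 ± 7.38 to 30.4 ± 3.35 CPM (-0.50 ± 0.14, adjusted p = 0.0266), a call lost without any library except K562 replicate 1. In the labelled libraries against K562/IM it was higher by 0.45 ± 0.095 (adjusted p = 0.00384), and the difference between these values was 0.94 ± 0.18 (adjusted p = 0.000907). MAPK7, which encodes ERK5, was higher by 0.56 ± 0.12 in the labelled libraries (adjusted p = 0.00377), and it shares 243 exonic bases with B9D1.

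Among kinases and factors downstream of ERK, RPS6KA3 (chrX:20149911-20267519) had 146, 120.3 and 99.7 CPM in K562, 138, 126 and 156 in K562+L, 188, 185 and 185 in K562/IM and 56.9, 50.3 and 75.5 in the labelled libraries. K562/IM was highest and the labelled libraries lowest, without overlap with the other groups. In the labelled libraries RPS6KA3 was at -1.58 ± 0.15 on the log2 scale against K562/IM (adjusted p = 6.74e-05, -1.13 after the correction) and -1.02 ± 0.19 against K562 (adjusted p = 0.00295). RPS6KA1, which encodes RSK1, was lower in both, at -0.69 ± 0.10 in K562 (adjusted p = 0.0025) and -0.55 ± 0.075 in the labelled libraries against K562/IM (adjusted p = 0.000432).

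MKNK2, a kinase of the translation factor eIF4E, fell under lycorine in K562 from 101 ± 4.70 to 61.8 ± 2.43 CPM (-0.71 ± 0.083, adjusted p = 0.000951). MKNK1, its paralogue, did not pass there (0.09 ± 0.086, adjusted p = 0.436) and was at 0.30 ± 0.064 in the labelled libraries against K562/IM (adjusted p = 0.0041). In that comparison MKNK2 was at 0.15 ± 0.061 (adjusted p = 0.0659), and the difference from the value in K562 was 0.83 ± 0.087 (adjusted p = 7.28e-06). The share of MKNK2 in the summed CPM per kb of MKNK1 and MKNK2 was 72.7% ± 1.80 in K562, 60.5% ± 0.498 in K562+L, 76.4% ± 0.799 in K562/IM and 74.4% ± 0.756 in the labelled libraries (SD, n = 3). ELK1, an ETS transcription factor that ERK phosphorylates, was 0.34 ± 0.066 in K562/IM (adjusted p = 0.00314) and -0.42 ± 0.064 in the labelled libraries against K562/IM (adjusted p = 0.000784).

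In the JNK/p38 arm, the 5 MAP3Ks among the members were each above K562 in K562/IM, and with K562/IM as the base each was below it in the labelled libraries, comparisons that share the K562/IM libraries. Of all genes tested, 30.1% were higher and 27.1% lower in K562/IM against K562. In the labelled libraries against K562/IM, 33.2% were higher and 33.6% lower. Other MAP3Ks went otherwise than the members. Of 8 from the second list of pathway genes for this arm, 6 rose in the labelled libraries against K562/IM and 1, MAP3K20, fell, at -0.57 ± 0.14 (adjusted p = 0.00787). The 6 were MAP3K6 at 0.56, MAP3K9 at 1.37, MAP3K10 at 0.60, MAP3K11 at 0.50, MAP3K12 at 0.91 and MAP3K13 at 0.61. Of these, MAP3K9 was weakly expressed, at 0.333 ± 0.0743 CPM in K562/IM and 0.845 ± 0.032 in the labelled libraries (SD, n = 3). MAP3K10 and MAP3K12 were also higher in K562/IM than in K562, and MAP3K13 was lower. MAP3K1 had 41.6, 32.1 and 26.7 CPM in K562, 37.7, 36.9 and 47.6 in K562+L, 58.8, 59.4 and 59 in K562/IM and 23.5, 23.9 and 34.8 in the labelled libraries. MAP3K5, which encodes the oxidant-sensitive ASK1, had 20.6, 17 and 13.9 CPM in K562, 13.5, 13.8 and 15.1 in K562+L, 33.2, 33 and 35 in K562/IM and 10.1, 11.9 and 15.6 in the labelled libraries. In both, K562/IM was above all other libraries. The labelled libraries were at -1.08 ± 0.16 for MAP3K1 (adjusted p = 0.000608) and -1.4 ± 0.16 for MAP3K5 (adjusted p = 0.000174) against K562/IM, and at -0.71 and -1.19 after the length and GC correction. In K562/IM against K562, MAP3K5 was at 0.98 ± 0.14 (adjusted p = 0.000693) and MAP3K1 at 0.82 ± 0.15 (adjusted p = 0.0024).

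MAP3K2, a kinase upstream of ERK5 and JNK, had 38.4, 27.2 and 25 CPM in K562, 48.6, 41.2 and 53.3 in K562+L, 45.1, 45.3 and 42 in K562/IM and 9.17, 7.37 and 29.7 in the labelled libraries. Replicate 3 of the labelled libraries stood apart from the other 2, yet below all K562/IM libraries. For these libraries against K562/IM the log2 fold change was -1.48 ± 0.49 (adjusted p = 0.0288). Without labelled replicate 3 it was -2.39, and the call was lost without labelled replicate 1 (-1.22), labelled replicate 2 (-1.16) or any 1 of the K562/IM libraries. MAP3K3 and MAP3K7, which encodes TAK1, were at -0.62 ± 0.067 and -0.57 ± 0.08 in this comparison (adjusted p = 0.00014 and 0.000519).

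The MAP2Ks below them did not follow. MAP2K3 (chr17:21284672-21315240), a p38 kinase kinase whose promoter is printed above, had 11.9, 17 and 15.6 CPM in K562, 9.34, 10.5 and 9.87 in K562+L, 11.9, 12.1 and 12.5 in K562/IM and 34.6, 33.8 and 27.6 in the labelled libraries. The labelled libraries lay above all others, and K562+L lay below K562. The log2 fold change was 1.42 ± 0.10 against K562/IM (adjusted p = 1.99e-05) and -0.58 ± 0.15 for lycorine in K562 (adjusted p = 0.0166, lost without K562 replicate 2 or K562+L replicate 1 or 3). The difference between the values was 1.98 ± 0.19 (adjusted p = 3.00e-06). MAP2K7, a JNK kinase kinase and the arm's highest gene per kb in K562, had 80.5, 80.9 and 84.9 CPM in K562, 113, 82.4 and 104 in K562+L, 46.2, 59 and 55.7 in K562/IM and 86.3, 84.3 and 79.8 in the labelled libraries. K562/IM was the low group, at -0.61 ± 0.10 against K562 (adjusted p = 0.00138), and the labelled libraries were at 0.66 ± 0.10 against it (adjusted p = 0.000722). MAP2K4 passed in none of the 4 comparisons.

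Among the kinases at the end of the arm, MAPK11 (chr22:50263713-50270767), which encodes p38 beta, had 23.6, 23.4 and 26 CPM in K562, 15.4, 15.7 and 13.1 in K562+L, 9.76, 9.48 and 9.82 in K562/IM and 23.5, 19 and 17.3 in the labelled libraries. K562/IM lay lowest, and the labelled libraries reached into the range of K562. MAPK11 had log2 fold changes of -1.33 ± 0.086 for K562/IM against K562 (adjusted p = 1.37e-05), 1.07 ± 0.13 for the labelled libraries against K562/IM (adjusted p = 0.000214) and -0.72 ± 0.11 for K562+L (adjusted p = 0.00231). MAPK14, which encodes p38 alpha, passed in none of the 4 comparisons, with log2 fold changes from -0.17 to 0.11, but after the length and GC correction it passed at -0.27 in K562/IM against K562 and 0.28 in the labelled libraries against K562/IM. Of the summed CPM per kb of both p38 genes, MAPK11 made up 37.2% ± 2.67 in K562, 25.1% ± 2.61 in K562+L, 20.9% ± 0.426 in K562/IM and 33.9% ± 3.86 in the labelled libraries (SD, n = 3).

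The JNK genes showed a like split. MAPK8, which encodes JNK1, was 45.2 ± 4.15 CPM in K562, 70.2 ± 2.32 in K562/IM and 34.6 ± 4.21 in the labelled libraries (SD, n = 3). Its log2 fold change was 0.63 ± 0.087 for K562/IM against K562 (adjusted p = 0.000566) and -1.0 ± 0.10 for the labelled libraries against K562/IM (adjusted p = 0.0001). MAPK9, which encodes JNK2, passed in K562+L against K562, at -0.43 ± 0.092 (adjusted p = 0.00945), and in no other pairwise comparison. With the length and GC correction it also passed in K562/IM against K562, at -0.18, and in the labelled libraries against K562/IM, where it turned from -0.012 to 0.25. The share of MAPK8 in the summed CPM per kb of both was 37.8% ± 0.715 in K562, 42.3% ± 4.04 in K562+L, 49% ± 0.109 in K562/IM and 32.7% ± 0.769 in the labelled libraries (SD, n = 3). ATF2, a transcription factor that JNK and p38 phosphorylate, was at -0.30 ± 0.089 in the labelled libraries against K562/IM (adjusted p = 0.0193) and 0.0081 after the length and GC correction.

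**Figure D4:**
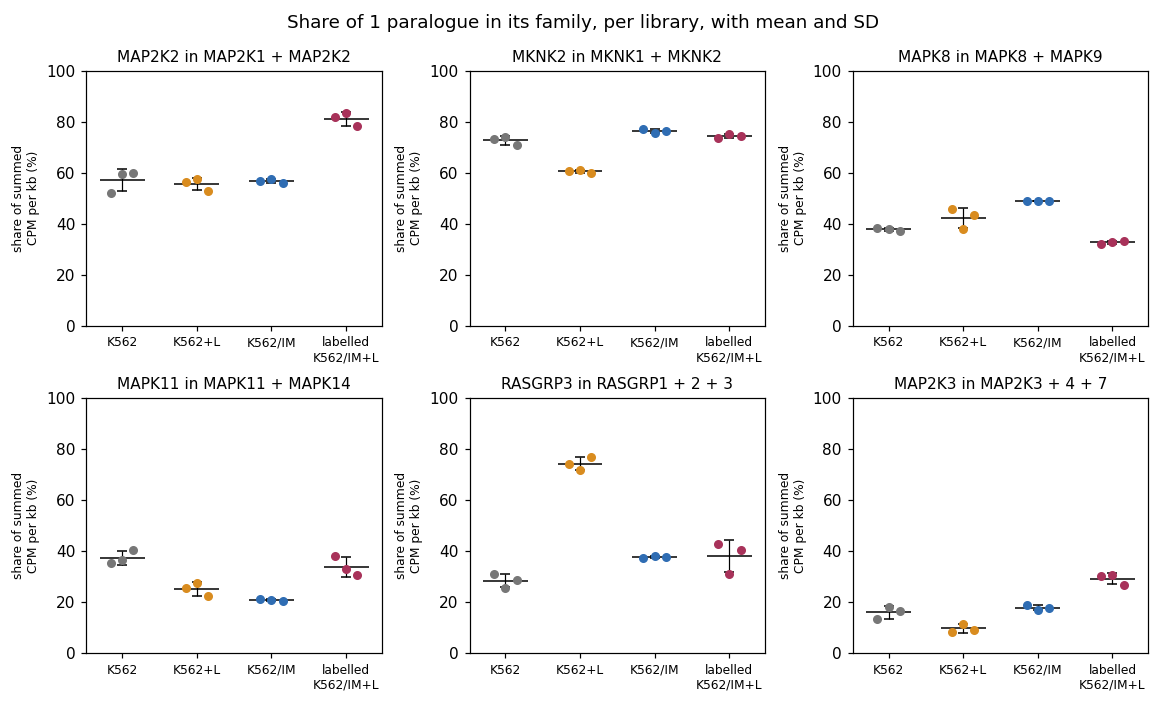
Share of 1 paralogue in the summed CPM per kb of its family, in percent, for 6 families and each library by group, with the mean and SD (n = 3). CPM are without the length and GC correction. MAP2K2 is near 57.3% ± 4.38 in K562 and at 81.2% ± 2.73 in the labelled libraries, while RASGRP3 is highest in K562+L at 74.2% ± 2.53.

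The difference of K562+L from K562 was set against that of the labelled libraries from K562/IM by an interaction over all 12 libraries, which compares lines under lycorine only as far as the label of the last group holds. It passed in 27 of 39 members (9 with a more positive and 18 with a more negative second difference), or 69.2%, against 61.7% of 13995 genes (29.9% and 31.7%). Upper-quartile scaling, which moved the median interaction of all genes by 0.13, gave 11 and 15, and over all genes 4688 and 3884. The 5 MAP3Ks among the members were on the negative side, although after the length and GC correction MAP3K7 turned from -0.42 to 0.073 and did not pass. RRAS, MAPK14 and RPS6KA1 had the interactions closest to 0, at 0.051 ± 0.28, -0.015 ± 0.10 and 0.11 ± 0.13, and the correction moved RRAS to -1.12 and MAPK14 to 0.25.

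The length and GC correction changed the calls of some members in each test, and the log2 fold changes here are those after it. For K562+L against K562, 12 members passed with it but not without it. Those higher were HRAS at 0.29, RASGRP1 at 1.32, ARAF at 0.22, MAP2K2 at 0.32, ELK1 at 0.32 and MAP2K7 at 0.40, and those lower were MRAS at -0.26, RASA2 at -0.34, MAP3K3 at -0.28, MAP3K5 at -0.44, MAP3K7 at -0.34 and MAPK8 at -0.37, so that 3 of the 5 MAP3Ks were then called lower, while MAP3K2 stayed higher at 0.30. BRAF was the 1 call lost. For the labelled libraries against K562/IM, 6 members were added, HRAS at -0.26, NRAS at 0.33, SOS1 at 0.61, BRAF at 0.24, MAPK9 at 0.25 and MAPK14 at 0.28. The 6 calls lost there were SHC1 at 0.13, SOS2 at -0.061, RASA1 at -0.12, RASA2 at 0.039, ARAF at 0.049 and ATF2 at 0.0081, of which 4 belong to RAS control.

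For K562/IM against K562, the correction added 8 calls, SOS1 at -0.30, MAPK3 at 0.18, MAPK7 at -0.30, MKNK1 at 0.15, RPS6KA1 at 0.20, MAPK9 at -0.18, MAPK14 at -0.27 and ATF2 at 0.16. The 7 lost were SOS2 at 0.16, RASA2 at 0.09, BRAF at -0.055, MAP2K2 at -0.048, MAP3K2 at 0.11, MAP3K3 at 0.074 and MAP3K7 at 0.16, which left 2 of the 5 MAP3Ks called. For the labelled libraries against K562 it added 8, SOS1 at 0.28, NF1 at -0.72, RASA1 at 0.51, BRAF at 0.16, ELK1 at -0.26, MAP3K5 at -0.42, MAP2K7 at -0.27 and MAPK11 at -0.54, and MAP3K7 was lost at -0.10. Among the GTPase-activating proteins, NF1 and RASA1 were thus called on opposite sides. Interactions added were RRAS at -1.12, SOS1 at 0.57, RASA2 at 0.35, ARAF at -0.20 and MAPK14 at 0.25. Those lost were NRAS at 0.10, SOS2 at -0.06, BRAF at 0.10, MAPK7 at 0.21, MAP3K7 at 0.073 and MAPK8 at -0.25, and HRAS passed with its sign turned, at -0.55. The interactions of NF1 at -1.62, MAP2K2 at 0.45, RPS6KA3 at -1.09, MAP3K1 at -0.79 and MAP3K2 at -1.37 kept their call with a change of more than 1.5 times in fold.

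**Figure D5:**
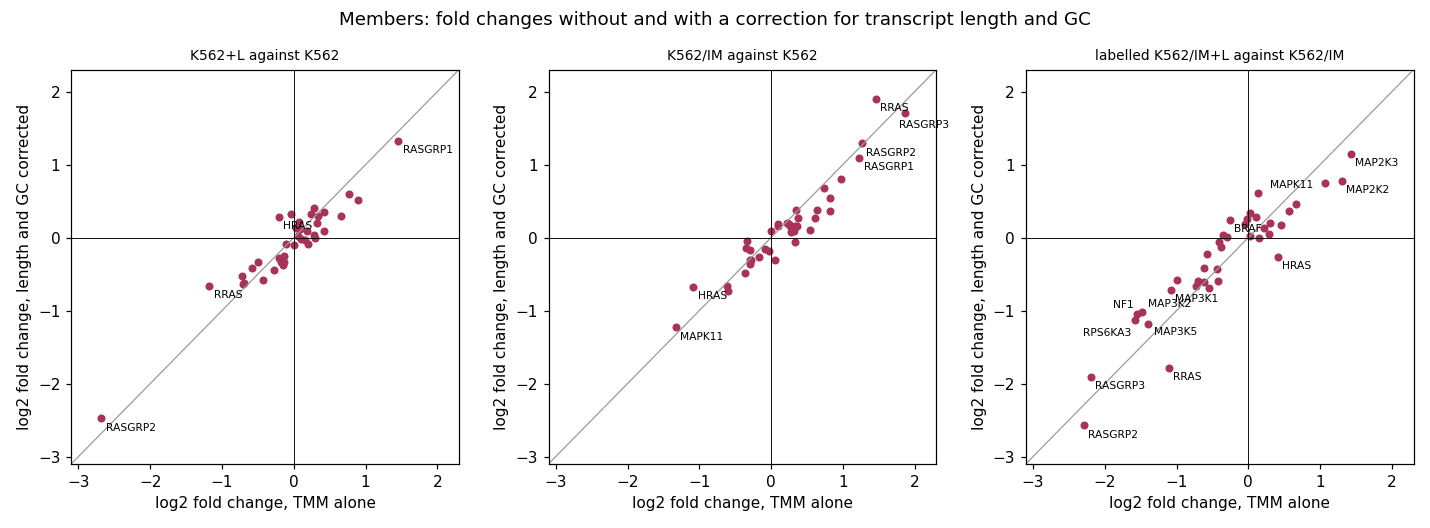
Log2 fold changes of the 39 members before (horizontal axis, TMM alone) and after (vertical axis) the correction for transcript length and GC, in 3 comparisons, with the line of equality. Each point is 1 member, and named points passed 1 log2 unit before the correction or changed sign by over 0.4. HRAS turns from 0.41 to -0.26 and RRAS moves from -1.11 to -1.79 in the labelled libraries against K562/IM, while RASGRP2 and RASGRP3 stay far from 0.

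Other genes of the pathway were counted from a second list. Of 66 listed, 20 of 60 tested, or 33.3%, passed for K562+L against K562 (13 higher, 7 lower), against 37.3% of all genes. For K562/IM against K562, 32 of 61 or 52.5% passed (26 higher, 6 lower), against 57.1%. For the labelled libraries, 44 of 61 or 72.1% passed against K562/IM (17 higher, 27 lower), and 36 of 58 or 62.1% against K562 (17 higher, 19 lower), where 66.8% and 56.0% of all genes did. Each share was near that of all genes. In the JNK/p38 part of the list, 13 genes rose and 8 fell in the labelled libraries against K562/IM. MAPK8IP1, a JNK scaffold, had 4.0, 5.51 and 6.60 CPM in K562, 13.8, 15.8 and 16.5 in K562+L, 4.68, 5.22 and 3.96 in K562/IM and 38.1, 39.1 and 33.2 in the labelled libraries. It rose against K562/IM, at 3.02 ± 0.13 (adjusted p = 1.69e-06), and it also rose under lycorine in K562, at 1.52 ± 0.19 (adjusted p = 0.00112). CNKSR1, a RAF scaffold, and MAPK8IP2 were the other 2 to pass both thresholds in K562, at 1.95 ± 0.22 and 1.77 ± 0.27. Both were weakly expressed, at 0.793 ± 0.13 and 1.65 ± 0.635 CPM in K562 (SD, n = 3). In K562/IM, MAPK8IP2 had 0.506 ± 0.156 CPM. MAPK8IP2 was at 2.34 ± 0.35 and the adaptor GAB1 at 1.03 ± 0.15 in the labelled libraries against K562/IM.

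The adaptor GAB2, through which BCR-ABL reaches RAS and PI3K, had 81.1 ± 8.50 CPM in K562, 186 ± 11.1 in K562/IM and 54.1 ± 7.41 in the labelled libraries (SD, n = 3), at 1.19 ± 0.10 (adjusted p = 4.00e-05) and then -1.75 ± 0.11 (adjusted p = 1.16e-05). SPRED2, a partner of NF1 that dampens RAS signalling, and RPS6KA5 were also lower in the labelled libraries, at -1.63 ± 0.095 and -1.75 ± 0.11. In K562/IM against K562, RASA4 and ELK3 rose, at 2.85 ± 0.11 and 1.36 ± 0.12, and MEF2C, a p38-responsive transcription factor, and MAPK8IP2 fell, at -1.5 ± 0.10 and -1.71 ± 0.38. RASA4 has near-identical copies, so that its value is uncertain. Against K562, the labelled libraries were higher for RASA4, MAPK8IP3 and MAPK8IP1, at 2.13 ± 0.14, 1.19 ± 0.084 and 2.76 ± 0.20, and lower for MEF2C, MAPKAPK3 and SPRED2, at -1.54 ± 0.10, -1.23 ± 0.11 and -1.46 ± 0.15. Positive interactions past both thresholds with the smallest p were those of MAP4K2, MAPK8IP1 and MAP4K1, at 1.22 ± 0.16, 1.48 ± 0.24 and 2.31 ± 0.77. The negative ones were those of GAB2, SPRED2 and IQGAP1, at -2.27 ± 0.18, -1.84 ± 0.17 and -2.5 ± 0.24. MAP4K1 was weakly expressed, with means of 0.379, 0.337, 0.307 and 1.35 CPM in K562, K562+L, K562/IM and the labelled libraries.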

How the data were processed

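Poly(A)-selected RNA of 12 libraries was sequenced. The authors deposited 1 table of whole-number estimated counts per gene symbol and library, without normalization, which were used as deposited. The submitters' processing notes name FastQC, STAR, StringTie, DESeq2 and hg38, and roles, versions, annotation and strand setting were not given in the sources used here. Low counts come in steps (values divisible by 4, or exceeding such a value by 1, were 67.9% of the 23289 counts between 1 and 25, where equal use of each number gives 52%), so that counting error may be larger than totals give. Library totals ran between 75093844 and 107344598.

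Groups followed the sample labels. Each comparison used its 6 libraries, edgeR 4.0.16 (R 4.3.3) with filterByExpr (minimum count 10), TMM and the quasi-likelihood test, and the interaction used 12. P-values were adjusted by Benjamini-Hochberg over all genes tested. Calls had an adjusted p under 0.05, with or without an absolute log2 fold change over 1. SE was the log2 fold change divided by the square root of F. CPM used TMM over 12 libraries, and lengths came from GENCODE release 29, in which 19029 of 19447 symbols were matched. The steps were tested on simulated counts. Alternatives were DESeq2 1.42.0, other scalings and filters, counts divided by 4, 1 fit of all libraries, blocking on the replicate number, leaving out single libraries, and, chosen after seeing the data, a correction for transcript length and GC, in which each library's deviation from the gene means was smoothed on both by splines, centred to a median of 0 and used as an offset. Members and lists were chosen with earlier results of these data known. Library values are given in full for members past both thresholds in any pairwise comparison and for the highest member per kb in each arm, and other pathway genes are named up to 3 per direction and comparison by smallest p. No batch or date was given, and with 3 libraries a group an exact permutation test could reach 0.1 at the lowest. The replicates of a group differed by more than sampling noise (chi-square per degree of freedom 8.63 to 53.8).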

Additional observations from a re-analysis of the deposited data

Results flagged for a closer look

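For 27 members the difference of K562+L from K562 and the difference of the libraries labelled K562/IM+L from K562/IM were unequal by edgeR's interaction test over 12 libraries (adjusted p under 0.05). Values are the second log2 fold change minus the first, and no explanation was tested.

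In RAS control, the difference was -2.98 for RASGRP3 and -2.47 for NF1, both higher under lycorine in K562 and lower in the labelled libraries. It was -0.83 for RASA1, -0.81 for RRAS2, -0.59 for MRAS, -0.58 for SOS2, -0.34 for GRB2, -0.33 for NRAS, 0.29 for SHC1 and 0.60 for HRAS. The calls of HRAS, NRAS and SOS2 were lost when some single libraries were left out, with values as low in size as 0.38 for HRAS without labelled replicate 2, -0.24 for NRAS without K562 replicate 3 and -0.47 for SOS2 without K562+L replicate 3. After the length and GC correction NF1 was at -1.62, HRAS had turned to -0.55, both past the test, and NRAS at 0.10 and SOS2 at -0.06 were not past it.

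In the ERK arm, the difference was 1.32 for MAP2K2 and -0.52 for its paralogue MAP2K1. It was -1.8 for RPS6KA3, -0.68 for ELK1 and -0.71 for BRAF on the negative side. On the positive side it was 0.94 for MAPK3, 0.83 for MKNK2 and 0.51 for MAPK7. After the length and GC correction MAP2K2 was at 0.45 and RPS6KA3 at -1.09, both still past the test, while BRAF at 0.10 and MAPK7 at 0.21 were not.

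In the JNK/p38 arm, the 5 MAP3Ks were on the negative side, with -2.17 for MAP3K2, -1.39 for MAP3K1, -1.14 for MAP3K5, -0.44 for MAP3K3 and -0.42 for MAP3K7. The value for MAP3K2 was -3.07 without replicate 3 of the labelled libraries. MAPK8 was at -0.87, while MAP2K3 was at 1.98, MAPK11 at 1.77 and MAPK9 at 0.39. The length and GC correction gave -0.25 for MAPK8 and 0.073 for MAP3K7, neither past the test, with -0.79 for MAP3K1 and -1.37 for MAP3K2, both past it. MAP2K3 and MAPK11 fell under lycorine in K562 and stood above K562/IM in the libraries labelled K562/IM+L.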

How the results depend on the processing

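Of 116 member calls over the 5 tests, 74 kept their direction and their call under each alternative. With no library left out, the counts of members called at an adjusted p under 0.05 kept within 1.5 times their value with the following exceptions. For K562+L against K562, the length and GC correction gave 26 in place of 15. For the labelled libraries against K562, the replicate block gave 9 in place of 18. Past both thresholds, the labelled libraries against K562 had 3 in place of 5 under upper-quartile scaling and 3 under the length and GC correction. The cause was not tested.

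With each library left out in turn, calls at an adjusted p under 0.05 ranged from 6 to 18 for K562+L against K562, 22 to 33 for the labelled libraries against K562/IM, 20 to 30 for K562/IM against K562, 12 to 20 for the labelled libraries against K562 and 24 to 30 for the interaction. Past both thresholds the ranges were 1 to 4, 8 to 13, 4 to 7 and 3 to 7 for the 4 pairwise comparisons in that order.

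The length and GC correction reversed 19 values (log2 scale). For K562+L against K562 these were HRAS at 0.29 and MAP2K2 at 0.32. For the labelled libraries against K562/IM they were HRAS at -0.26, RASA2 at 0.039, BRAF at 0.24, MAPK9 at 0.25 and ATF2 at 0.0081. For K562/IM against K562 they were SOS1 at -0.30 and BRAF at -0.055, and for the labelled libraries against K562 MAP2K7 at -0.27. Interactions reversed were HRAS at -0.55, NRAS at 0.10, RRAS at -1.12, SOS1 at 0.57, RASA2 at 0.35, ARAF at -0.20, BRAF at 0.10, MAP3K7 at 0.073 and MAPK14 at 0.25.

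Deviations of same-numbered libraries correlated at -0.23 to 0.081, which gave no sign of a pairing by replicate number. With the replicate number as a block, calls at an adjusted p under 0.05 were 10 for K562+L against K562, 30 for the labelled libraries against K562/IM, 26 for K562/IM against K562, 9 for the labelled libraries against K562 and 25 for the interaction. Past both thresholds they were 2, 12, 5 and 5. In no comparison did all libraries correlate best with those of their own number.

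Depth limits MAP2K6, which had no counts, and RASGRP1, which with 7 to 93 counts per library had the fewest of the members tested. With 3 libraries a group, no test for outlying libraries was made. The deposited counts come in steps of about 4 at low values, and division of counts by 4 changed no count of calls by over 1.5 times.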
